A study of Mus musculus with 12 samples.

Results

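The genes described here are 33 mouse genes of the response to low oxygen that lie outside the core glycolytic pathway. They were chosen by symbol from a list, and the list was picked because some of its genes had lower RNA in cells without Smad1 and Smad5. All 33 matched 1 gene each, out of 39179 counted genes, and all 33 passed the expression filter of both comparisons. Differences between cells with and without Smad1/5 therefore repeat how the genes were selected. They are given as a description, with no p for any of the 33. The number that passed the threshold over all genes, and how it changed with the processing, is printed with nothing read from it. The list was not picked on the comparison by BMP reporter or on that between collections of the reporter cells, and both were tested. Earlier results of these data were known when the list was made, and the test between collections was added after the data had been seen.

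Total RNA was sequenced in 12 libraries of mouse embryonic stem cells, from 2 experiments on signalling by bone morphogenetic proteins (BMP), ligands that activate the transcription factors SMAD1 and SMAD5. In the first, BRE-GFP cells on a mixed CBA, C57Bl/6 background, in which a BMP response element drives GFP, grew in FCS + Lif on feeders as naïve cells. Sorting on SSEA1, a surface antigen, and on GFP gave BRE-negative (n = 3) and BRE-positive (n = 3) libraries, with 1 negative and 1 positive library from each of 3 collections. In the second, ground state cells with the genotype Smad1/5 fl/fl (FL, n = 2) or Smad1/5 -/- (KO, n = 4), on a background of CD-1, 129/Ola and C57Bl/6, grew in 2i + Lif on gelatin. Its FL and KO libraries came from 2 parental lines (1 FL and 2 KO from each), and the labels do not tie a library to a line. Neither oxygen nor any hypoxia treatment is named for any group. Separate cultures are not described, so the spread on which the p-values rest may be technical within a line or a collection. The KO comparison has no term for the parental line. It takes the 4 KO libraries from 2 lines as independent, and its SEs and p-values leave that shared origin out.

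Hypoxia-inducible factors (HIF) are pairs of an oxygen-regulated alpha subunit and a stable partner. When oxygen is present, prolyl hydroxylases of the EGLN family mark the alpha subunit, VHL binds the marked form, and the protein is destroyed. When oxygen falls, the alpha subunit persists, enters the nucleus and binds the short hypoxia response element, whose core reads ACGTG or GCGTG. Its targets redirect glucose, trim mitochondria, modify collagen and call for blood vessels. Much of this control acts on protein, which RNA levels do not show.

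The core was searched on both strands (ACGTG or GCGTG, which read CACGT or CACGC on the opposite strand, with overlapping matches counted once) in RefSeq promoters of build GRCm38.p6, from 250 bases before to 50 after each start. Of the 33 genes, 28 were in the promoter table, and 24 of these (85.7%) held a match at 1 or more of their starts. The share was 66.7% of 10756 genes among those tested in the KO comparison and 46.7% of 27025 genes in the whole table. Counted by promoter, 29 of 39 (74.4%) held a match, against 60.9% of the 13700 promoters of tested genes. As a check on base composition, the GC-rich hexamer GGCGCC was in 20.5% of the members' promoters and 20.6% of those of tested genes, and by gene in 17.9% and 24.3%. A match is a string of letters, not a bound site.

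The stretches that follow lie directly upstream of the start (of RefSeq or GENCODE M21, whichever is further out), 5′ to 3′ on the gene's strand, with core matches in capitals. They show a gene of energy metabolism, a pair of mitochondrial genes, an oxygen sensor, a growth regulator and a collagen enzyme with a match, and Gys1, one of 4 genes with no match in any listed window.
Ak4 (chr4:101419147-101419276, plus strand): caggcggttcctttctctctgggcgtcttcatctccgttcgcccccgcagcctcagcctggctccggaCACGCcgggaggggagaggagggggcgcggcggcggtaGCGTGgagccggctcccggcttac
Fam162a (chr16:36071595-36071684, minus strand): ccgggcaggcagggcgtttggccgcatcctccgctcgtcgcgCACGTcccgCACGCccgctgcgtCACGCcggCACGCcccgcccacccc
Bnip3 (chr7:138909520-138909649, minus strand): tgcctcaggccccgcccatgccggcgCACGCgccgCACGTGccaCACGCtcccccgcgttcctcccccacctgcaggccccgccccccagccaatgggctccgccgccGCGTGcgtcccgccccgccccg
Egln1 (chr8:124949325-124949454, minus strand): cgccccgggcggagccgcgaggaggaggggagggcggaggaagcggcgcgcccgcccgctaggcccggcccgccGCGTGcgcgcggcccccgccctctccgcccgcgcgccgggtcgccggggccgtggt
Ddit4 (chr10:59951835-59951964, minus strand): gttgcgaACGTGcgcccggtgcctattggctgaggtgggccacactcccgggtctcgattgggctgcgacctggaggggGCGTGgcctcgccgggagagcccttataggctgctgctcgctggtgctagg
P4ha1 (chr10:59323166-59323295, plus strand): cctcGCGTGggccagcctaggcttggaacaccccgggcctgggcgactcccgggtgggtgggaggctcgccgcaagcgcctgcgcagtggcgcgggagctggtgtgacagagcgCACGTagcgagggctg
Gys1 (chr7:45434710-45434838, plus strand): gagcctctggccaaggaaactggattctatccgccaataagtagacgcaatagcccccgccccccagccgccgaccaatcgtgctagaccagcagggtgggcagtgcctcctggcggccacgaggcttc

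The matches were unevenly spread among genes. Fam162a had 6 in its 300-base window and 4 in the stretch printed above, and Bnip3 had 4, 3 of them close together. Egln1 had 2 in its window, 1 of which lies in the stretch. Besides Gys1, the genes with no match at any listed start were Car12, Gbe1 and Vhl.

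**Figure D1:**
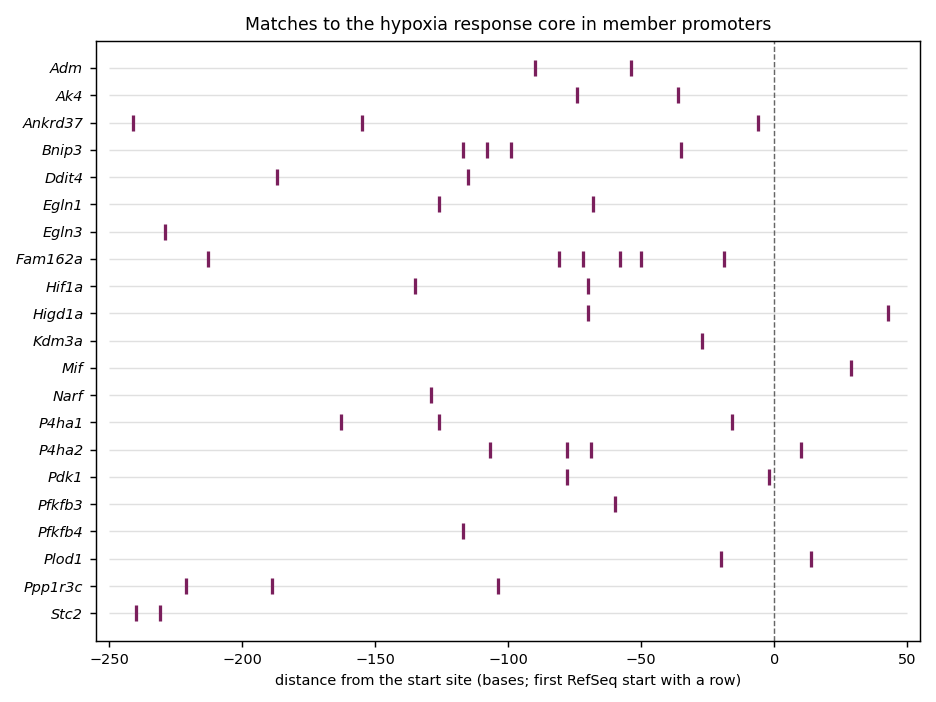
Position of each core match (ACGTG or GCGTG, either strand) relative to the first listed RefSeq start, in bases, for the 21 genes with a match at that start. Each point is 1 match, and Fam162a has the most with 6, followed by Bnip3 and P4ha2 with 4 each.

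Library totals ran from 25862573 to 37319846 counts. The 8 pluripotent stem cell markers summed to 3822 to 5280 CPM (counts relative to library size) in every library, and none was at 0. The 15 feeder fibroblast markers summed to 1540 to 2098 CPM in the 6 reporter libraries, grown on feeders, and to 654.5 to 1054 CPM in the 6 Smad1/5 libraries, in which up to 5 of the 15 were at 0. Smad1 stood at 643 and 665 counts in FL and 373 to 619 in KO, and Smad5 at 1136 and 1153 in FL and 880 to 1176 in KO. The deleted part of either gene is not given in the labels, so these totals do not check the genotypes. The strand setting of the counting is also not given, and reads of opposite-strand partners may be mixed. Such partners share 19.8% of the exon bases of Fam162a (Wdr5b, 996 counts over all libraries), 22.7% of Ankrd37 (Lrp2bp, 45 counts) and 6.47% of Gys1 (Ruvbl2, 118956 counts).

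On the per-length scale of TPM (a transcript's share of its library), the 33 genes spanned a wide range. Mif, a secreted cytokine made by most cells, was highest, with group means of 855 to 954 TPM. In FL cells, the next were Kdm3a at 124, Fam162a at 121, Ddit4 at 120, Bnip3 at 108 and Ak4 at 93.0 TPM. Adm, Ppp1r3c, Gbe1, Pfkfb4 and Car12 were among the low genes, with no group mean above 2.98 TPM. In bulk samples, fewer cells with a transcript and less transcript per cell cannot be told apart.

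**Figure D2:**
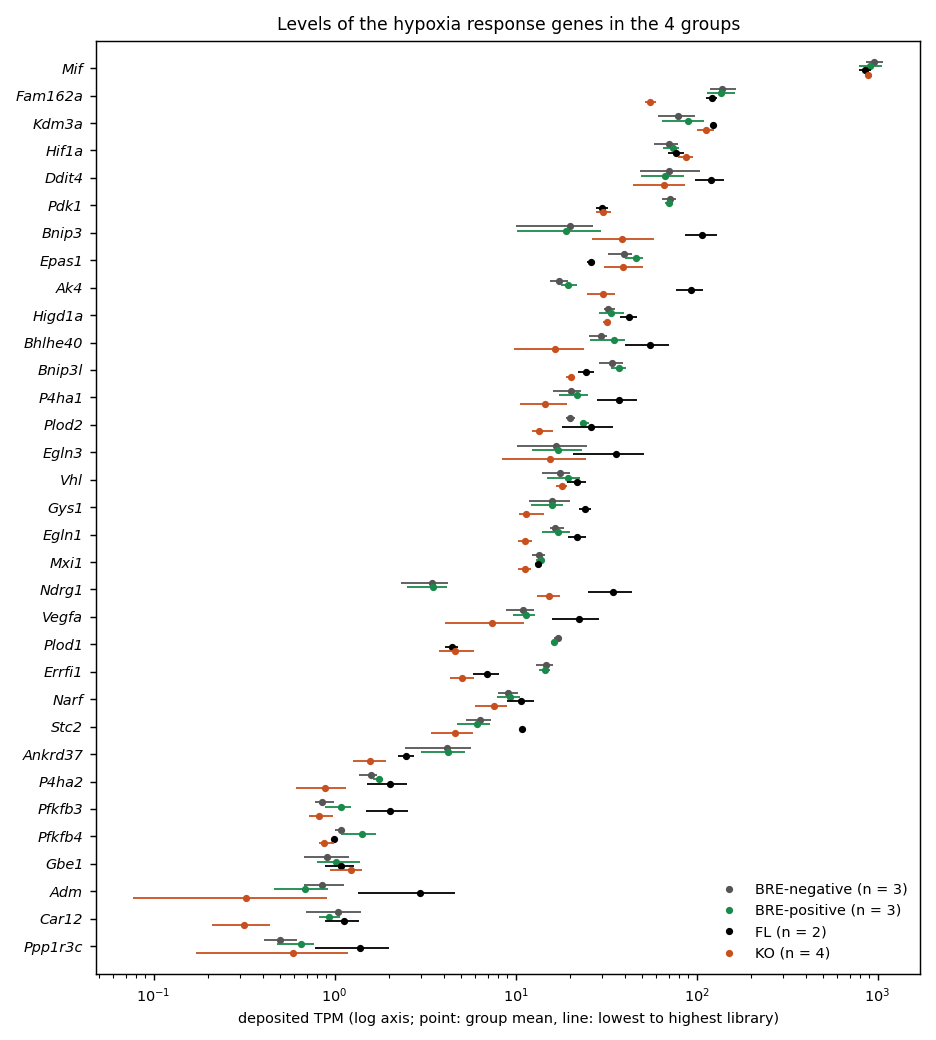
Level of each gene in TPM (log axis) in BRE-negative (n = 3), BRE-positive (n = 3), FL (n = 2) and KO (n = 4) libraries, with a point at the group mean and a line from the lowest to the highest library. The reporter groups lie on top of each other for most genes, while FL lies to the right of KO for genes such as Ak4 (93.0 against 30.5 TPM) and Bnip3 (108 against 38.8 TPM).

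Paralogs of the same function stood at unlike levels. HIF-1 alpha RNA (Hif1a) exceeded that of its relative HIF-2 alpha (Epas1) in every group, at 77.1 against 26.1 TPM in FL and 87.1 against 39.5 TPM in KO. The oxygen sensors Egln1 and Egln3 had level means in BRE-negative cells (16.5 and 16.7 TPM), but their order varied by collection. There they were at 18.47 and 24.69 TPM in collection 2 and at 15.43 and 10.17 TPM in collection 3. In FL replicate 1 they were at 24.51 and 51.23 TPM. In FL replicate 2 they were closer, at 19.41 and 20.85 TPM. P4ha1, a catalytic subunit of collagen prolyl 4-hydroxylase, was at 37.5 TPM in FL and its paralog P4ha2 at 2.01 TPM. The mitophagy receptor Bnip3 was at 108 TPM in FL and its relative Bnip3l at 24.6 TPM, whereas in BRE-positive cells the order was the other way round, at 19.1 and 37.4 TPM. Of the collagen lysyl hydroxylases, Plod2 was at 26.2 and Plod1 at 4.46 TPM in FL, against 20.1 and 17.2 TPM in BRE-negative cells. Pfkfb3 and Pfkfb4, enzymes that set the level of a phosphofructokinase activator, were at 2.03 and 0.998 TPM in FL.

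Between the experiments, all FL libraries lay above all 6 reporter libraries in TPM for 12 genes (29% of the 14488 genes tested in both experiments), below for 6 (26.7%), and overlapped for 15. Ndrg1, a stress-induced growth regulator, was 9.89-fold higher in FL than in the mean of the reporter libraries, Bnip3 5.52-fold and Ak4 5.07-fold. Plod1 stood at 0.267 and the mitochondrial kinase gene Pdk1 at 0.421 of the reporter mean. Line, strain, medium, feeders and sorting all differ between the experiments and cannot be told apart, and no test was made.

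In cells without Smad1/5, 27 of the 33 genes had a negative log2 fold change against FL and 6 a positive one. The median log2 fold change was -0.92, against 0.01 over all genes tested, and 15 of the 33 were over 2-fold lower, as were 5.01% of all genes. In edgeR's fit of all genes, 9 of the 33 lay past the threshold (adjusted p under 0.05) on the lower side, where 3.18% of all genes did, and 0 on the higher side, where 1.85% did (1, Epas1, with DESeq2). The 9 were Ak4, Car12, Bhlhe40, Pfkfb3, Stc2, Ndrg1, Fam162a, Gys1 and Egln1. All 4 KO libraries lay below both FL libraries for 19 genes (16.8% of all genes tested) and above both for 2, Hif1a and Epas1 (17.8%). All of these counts carry the choice of the genes and show nothing independent of it. The 9 fell to 3 with KO replicate 3 left out and to 4 with KO replicate 4 left out. In the same fits, calls over all genes fell from 801 to 236 and 215. Leaving out either FL replicate leaves 1 FL library, so no count is read from those fits.

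The oxygen-sensing genes did not move as one. Egln1 (ENSMUSG00000031987, chr8:124908587-124949324), the main prolyl hydroxylase acting on HIF, was at 31.35 and 24.21 CPM in FL replicates 1 and 2 and at 16.02, 16.81, 12.93 and 12.81 CPM in KO replicates 1 to 4. The groups did not overlap, and KO was 1.90-fold lower (log2 fold change -0.92 ± 0.16, SE). Egln3, a sensor that is itself induced by HIF, stood at 49.65 and 19.7 CPM in FL against 18.48, 25.2, 7.936 and 10.46 CPM in KO. Its groups overlapped, with FL replicate 1 far above FL replicate 2, and its log2 fold change was -1.16 ± 0.48 (SE).

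Hif1a (chr12:73901375-73947530) was at 180.4 and 215.5 CPM in FL against 223.3, 219.5, 241.8 and 231.3 CPM in KO, with a log2 fold change of 0.21 ± 0.08 (SE). Epas1 (chr17:86753700-86833410) stood at 52.84 and 46.78 CPM in FL against 65.78, 63.69, 82.71 and 94.65 CPM in KO (log2 fold change 0.62 ± 0.17, SE). For both alpha subunits, the FL libraries were the lowest of the 6. Vhl, the substrate receptor of the ligase that removes HIF alpha, was at 32.86 and 24.97 CPM in FL against 21.69 to 27.41 CPM in KO, overlapping (log2 fold change -0.24 ± 0.14, SE).

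Among genes of energy metabolism, Ak4 (ENSMUSG00000028527, chr4:101419277-101466995), a mitochondrial adenylate kinase, stood furthest apart relative to its error. It was at 250.5 and 173.4 CPM in FL against 67.73, 60.92, 76.23 and 78.45 CPM in KO. KO was 2.99-fold lower, at 70.8 ± 8.06 CPM (SD, n = 4) against 212 ± 54.5 CPM (SD, n = 2), and the log2 fold change was -1.58 ± 0.15 (SE). Pfkfb3 was at 21.78 and 12.4 CPM in FL against 6.43, 8.922, 6.59 and 6.502 CPM in KO (log2 fold change -1.26 ± 0.23, SE), with no overlap. Its paralog Pfkfb4 had a log2 fold change of -0.16 ± 0.17 (SE).

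The glycogen genes were split. Gys1 (chr7:45434844-45456619), the glycogen synthase of most tissues, was at 70.84 and 59.38 CPM in FL against 40.6, 30.04, 28.06 and 27.29 CPM in KO, 2.07-fold lower with no overlap. Gbe1, the branching enzyme, had a log2 fold change of 0.23 ± 0.22 (SE), with FL and KO overlapping. Ppp1r3c, a subunit that targets a phosphatase to glycogen, was at 1.945 and 0.7297 CPM in FL and 0.132 to 1.231 CPM in KO (log2 fold change -1.19 ± 0.73, SE). The mitochondrial kinase gene Pdk1 stood at 143.9 and 120.6 CPM in FL and 121.0 to 157.0 CPM in KO (log2 fold change 0.06 ± 0.12, SE).

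For mitochondria, Fam162a (ENSMUSG00000003955, chr16:36043761-36071594), a mitochondrial protein linked to cell death under hypoxia, was at 30.09 and 25.38 CPM in FL against 14.34, 13.03, 12.63 and 11.62 CPM in KO. It was 2.15-fold lower in KO (log2 fold change -1.10 ± 0.12, SE), with KO libraries close to each other. Bnip3 (chr7:138890836-138909519) stood at 164.8 and 106.8 CPM in FL against 57.77, 78.59, 32.59 and 34.03 CPM in KO. The groups were separate and the means 2.68-fold apart by the fit, with a wide spread within KO (log2 fold change -1.42 ± 0.34, SE). Bnip3l had a log2 fold change of -0.24 ± 0.11 (SE) and Higd1a, an inner-membrane protein, of -0.37 ± 0.12 (SE).

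Of the secreted and surface proteins, Stc2 (chr11:31357307-31370074), a stanniocalcin hormone, was at 38.52 and 35.16 CPM in FL against 20.8, 19.69, 11.37 and 12.97 CPM in KO, 2.27-fold lower. Car12 (chr9:66713686-66766845), a membrane carbonic anhydrase that handles acid outside the cell, was at 4.391 and 2.784 CPM in FL against 0.9762, 0.6992, 0.9885 and 1.353 CPM in KO. It was 3.57-fold lower (log2 fold change -1.84 ± 0.30, SE). The angiogenic factor Vegfa (chr17:46016993-46032369) stood at 112.9 and 60.83 CPM in FL against 45.58, 41.12, 15.54 and 16.47 CPM in KO. Its libraries fell into a high and a low pair within KO (log2 fold change -1.55 ± 0.45, SE).

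Adm, the vasodilator peptide adrenomedullin, had the largest log2 fold change of the 33 genes, -3.19 ± 0.88 (SE), on few reads. It had 170 and 52 counts in FL and 5, 37, 2 and 3 counts in KO, so KO replicate 2 alone held most of the KO reads. Mif was nearly level, at 160.1 and 180.3 CPM in FL and 169.6 to 196.4 CPM in KO (log2 fold change 0.09 ± 0.08, SE).

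In the collagen-modifying set, P4ha1 was at 111.6 and 65.1 CPM in FL against 43.53, 48.67, 24.49 and 24.98 CPM in KO (log2 fold change -1.32 ± 0.31, SE). P4ha2 stood at 9.43 and 5.513 CPM in FL and 2.224 to 4.511 CPM in KO (log2 fold change -1.16 ± 0.30, SE). Plod2 was at 101.2 and 51.81 CPM in FL and 36.27 to 50.71 CPM in KO (log2 fold change -0.92 ± 0.24, SE). None of the 3 overlapped between groups. Plod1 did overlap, with a log2 fold change of 0.11 ± 0.24 (SE).

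Among regulators of transcription and growth, Bhlhe40 (ENSMUSG00000030103, chr6:108660629-108666925), a basic helix-loop-helix repressor, was at 96.83 and 54.21 CPM in FL against 30.13, 34.96, 13.15 and 15.48 CPM in KO. It was 3.22-fold lower (log2 fold change -1.69 ± 0.39, SE). Ndrg1 (ENSMUSG00000005125, chr15:66929318-66969640) was at 150.3 and 83.54 CPM in FL against 47.26, 64.39, 52.23 and 50 CPM in KO, 2.19-fold lower. Ddit4, an inhibitor of the growth kinase mTORC1, stood at 87.4 and 58.78 CPM in FL against 55.31, 55.32, 26.66 and 28.32 CPM in KO (log2 fold change -0.82 ± 0.33, SE), a narrow separation.

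The remaining genes of this kind had smaller fold changes. Errfi1, which inhibits EGF receptor signalling, had a log2 fold change of -0.44 ± 0.17 (SE), Narf, a lamin-binding nuclear protein, of -0.46 ± 0.22, and Ankrd37, an ankyrin repeat protein, of -0.65 ± 0.23. Mxi1, an antagonist of MYC, was at -0.21 ± 0.12 and the histone demethylase gene Kdm3a at -0.11 ± 0.07 (SE). Kdm3a kept its groups apart by a small margin, with 220.4 CPM as the highest KO and 220.9 CPM as the lowest FL library.

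**Figure D3:**
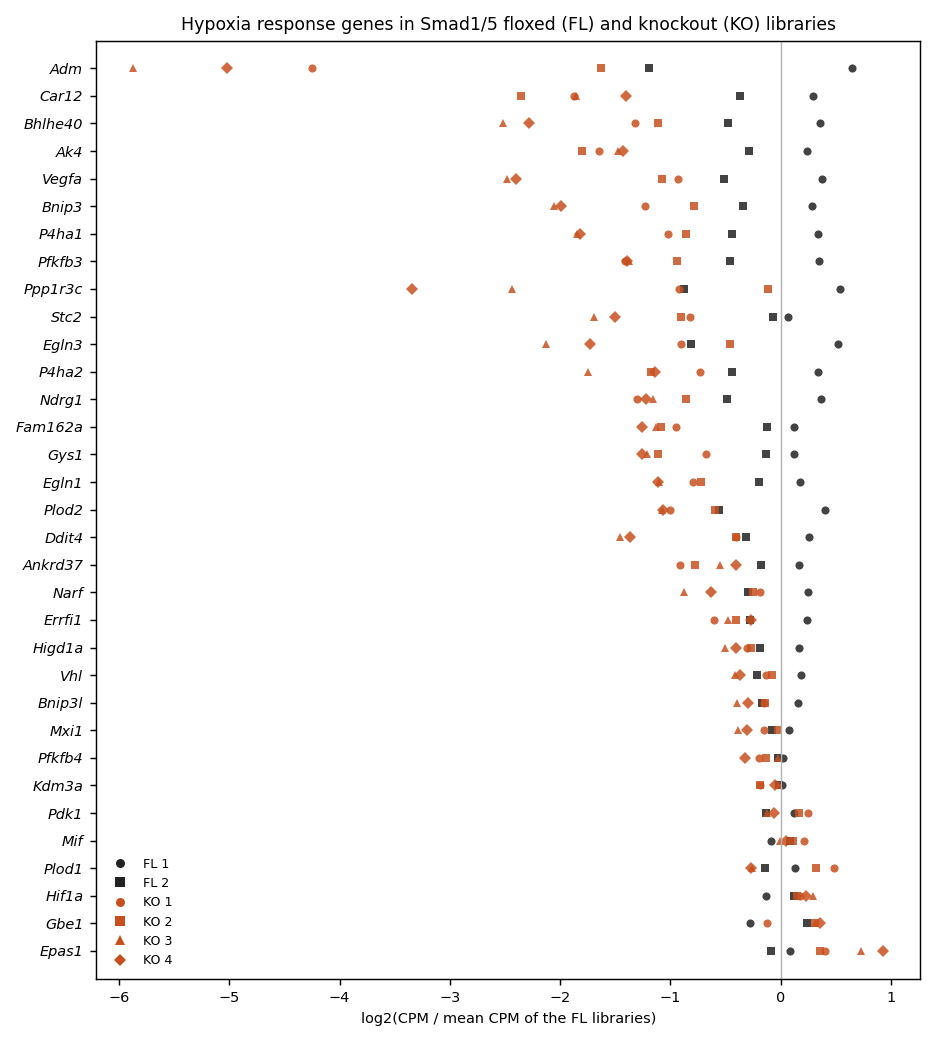
Log2 of each Smad1/5 library's CPM over the mean FL CPM, for each gene, with FL replicates 1 and 2 and KO replicates 1 to 4 as separate points. FL replicate 1 lies above FL replicate 2 for 30 of the 33 genes (49.3% of all genes tested). KO replicates 3 and 4 lie below KO replicates 1 and 2 for 21 (28.7%). Both counts can carry the choice of the genes.

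Libraries of one group also differed from each other over the 33 genes. FL replicate 1 was above FL replicate 2 for 30 of the 33 genes (49.3% of all genes tested), all but Gbe1, Hif1a and Mif. The median log2 ratio of the first to the second was 0.40 over the 33 genes and -0.00 over all genes. Within KO, replicates 3 and 4 were both below replicates 1 and 2 for 21 genes (28.7%), among them Vegfa, Bhlhe40, Ddit4, P4ha1, Egln3 and Bnip3, and both above for 6 (27.9%). Ak4 and Epas1 were among the 6. Whether these pairs are the parental lines is not given in the labels and was not tested. The list was picked on the difference between these FL and KO libraries. High values in an FL library or low values in some KO libraries can therefore carry that choice, and nothing is read from the excess over all genes.

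The reporter comparison asked whether cells with an active BMP response differ from their neighbours, and none of the 33 genes was called. BRE-positive and BRE-negative libraries differed by a median log2 fold change of -0.04 over the 33 genes and -0.00 over all genes, with a range from -0.40 ± 0.27 for Adm to 0.31 for Ppp1r3c. By edgeR with the collection as a block, 0 of 33 were called, against 2.97% of all genes tested. The lowest adjusted p was 0.134, for Plod1, and 5 had an unadjusted p under 0.05 (18.3% of all genes): Pfkfb3, Epas1, Plod1, Plod2 and Mif. DESeq2 also called 0 of the 33, in a fit that called 323 of 15435 genes. The limma fits called 0 of all genes, so their 0 among the 33 says nothing about these genes. Without the first collection, 7 of the 33 were called, in a fit that called 14.4% of all genes, and without the second 1, Mif, where 2.56% were.

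The direction within pairs varied. The BRE-positive library was higher in all 3 pairs for 5 genes, P4ha2, Pfkfb3, Kdm3a, Epas1 and Bhlhe40 (19.3% of all genes tested), and lower in all 3 for 5, Fam162a, Ndrg1, Pdk1, Adm and Plod1 (20.6%). Pfkfb3 was at 7.122, 8.509 and 6.682 CPM in the BRE-negative libraries of collections 1, 2 and 3, and at 8.033, 9.631 and 8.92 CPM in their BRE-positive partners (log2 fold change 0.25 ± 0.10, SE). Epas1 was at 68.12, 85.26 and 82.42 CPM in the negative and 83.46, 89.85 and 84.01 CPM in the positive libraries (0.13 ± 0.06). Plod1 was at 61.52, 53.54 and 58.12 CPM against 57.01, 46.99 and 50.48 CPM (-0.17 ± 0.06). None of these passed the test across all genes.

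Several genes with wide differences between FL and KO were read in the reporter groups, where none was called. Ak4 was at 38.35, 44.8 and 39.12 CPM in the negative libraries of collections 1, 2 and 3 and at 45.45, 45.99 and 37.83 CPM in the positive ones, a log2 fold change of 0.08 ± 0.07 (SE). Stc2 was at 23.69, 18.33 and 25.01 CPM against 17.41, 19.8 and 22.72 CPM (-0.16 ± 0.09), and Fam162a at 41.49, 29.75 and 27.47 CPM against 40.29, 27.56 and 24.3 CPM (-0.11 ± 0.06). All 3 overlapped between groups.

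Car12 stood at 4.905, 2.225 and 3.274 CPM in negative and at 3.688, 2.415 and 2.691 CPM in positive libraries (-0.22 ± 0.16). Egln1 was at 21.42, 23.73 and 19.71 CPM against 27.26, 20.32 and 16.34 CPM (-0.04 ± 0.10), higher in the positive library of the first collection and lower in the others. Bhlhe40 was at 37.85, 43.69 and 44.24 CPM against 37.92, 48.75 and 50.71 CPM (0.12 ± 0.06). Ndrg1 (-0.06 ± 0.08) and Gys1 (-0.08 ± 0.07) also overlapped.

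The regulators of HIF and its classic target also overlapped. Hif1a was at 164.1, 206.6 and 192.6 CPM in negative and at 181.1, 189.3 and 188.8 CPM in positive libraries (-0.00 ± 0.06). Vhl was at 20.09, 25.3 and 26.53 CPM against 21.44, 27.84 and 25.49 CPM (0.06 ± 0.07). Vegfa was at 53.37, 34.82 and 45.63 CPM against 53.54, 34.37 and 42.48 CPM (-0.04 ± 0.06). For these 3, the interval of 1 SE included 0.

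**Figure D4:**
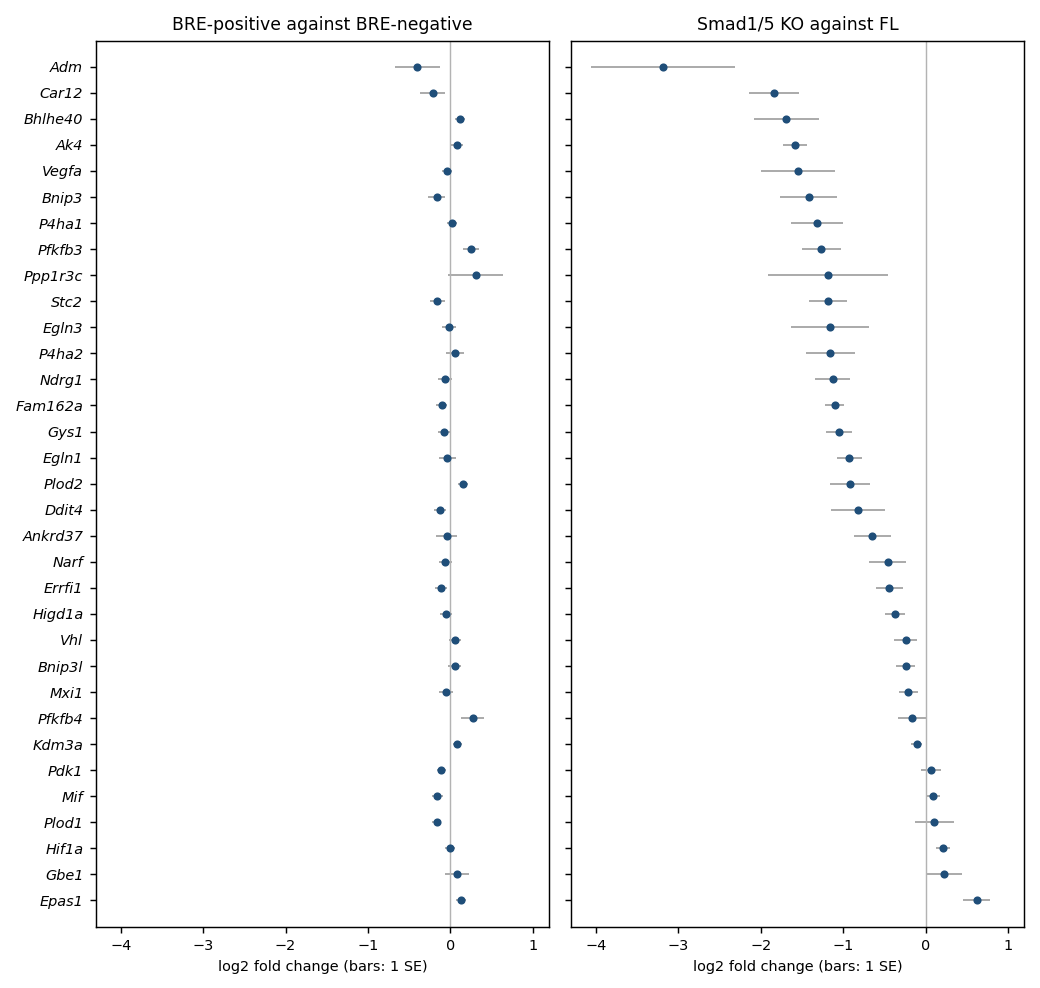
Log2 fold change with 1 SE for each gene, BRE-positive over BRE-negative in the left panel and KO over FL in the right panel, on the same axis; the right panel is the contrast the genes were picked on. Values between the reporter groups run from -0.40 (Adm) to 0.31 (Ppp1r3c), and between FL and KO from -3.19 (Adm) to 0.62 (Epas1).

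Several of the genes differed between the 3 collections of the reporter cells. In a test between collections added after the data had been seen, 19 of the 33 genes were called by edgeR, against 43.7% of all genes tested. In that test, the BRE-negative and BRE-positive library of a collection stood in as its replicates. The p-values therefore weigh differences between collections against the spread between sorted fractions of the same collection. They do not show that a difference would recur if a collection were repeated. The third collection held both of the lowest libraries for 12 genes (9.99% of all genes) and the first both of the highest for 10 (21.3%).

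Bnip3 showed the widest called range, with 36.77 and 40.2 CPM in the BRE-negative and BRE-positive libraries of the first collection, 29.49 and 20.35 CPM in the second and 12.79 and 11.88 CPM in the third (3.12-fold between the highest and lowest collection mean, adjusted p = 2.4e-06). Each collection was separate from the others. Ddit4 was at 69.14 and 56.05, then 30.08 and 27.7, then 35.03 and 36.72 CPM (2.17-fold, adjusted p = 1.29e-06), so its lowest collection was the second. Egln3 was at 15.93 and 16.69, 24.02 and 20.59, and 9.821 and 10.96 CPM (2.15-fold, adjusted p = 1.82e-05).

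Low values in the third collection recurred in Ndrg1, at 15.69 and 15.25, 13.09 and 12.05, and 7.897 and 7.843 CPM (1.97-fold, adjusted p = 3.65e-05). P4ha1 was at 59.17 and 63.73, 52.72 and 51.22, and 38.1 and 37.87 CPM (1.62-fold, adjusted p = 2.67e-05). Ankrd37 was at 5.764 and 5.845, 6.873 and 5.833, and 2.936 and 3.306 CPM (2.04-fold, adjusted p = 0.000482). Gys1 went the other way, at 34.81 and 35.48, 42.68 and 42.7, and 54.3 and 45.44 CPM (1.42-fold, adjusted p = 0.00102). Fam162a (1.58-fold), Vegfa (1.55-fold), Kdm3a (1.47-fold), Car12 (1.85-fold), Gbe1 (1.56-fold), Egln1 (1.35-fold), Mif (1.34-fold), Narf (1.31-fold), Vhl (1.28-fold), Bhlhe40 (1.25-fold), Pdk1 (1.22-fold) and Plod1 (1.18-fold) were also called.

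Hif1a (1.15-fold), Epas1 (1.15-fold) and Ak4 (1.18-fold) were not called between collections. Feeder fibroblast markers moved with the collections too: 14 of the 15 were called between them, and 13 were lowest in both libraries of the first. Without the abundant Fn1 and Sparc, the other 13 summed to 81.7 and 52.79 CPM in the negative and positive library of the first collection, 178.4 and 159.4 CPM in the second and 174.9 and 140.3 CPM in the third. The periostin gene Postn was at 1.108 and 0.7502, 9.197 and 8.031, and 10.66 and 6.959 CPM (adjusted p = 7.49e-08). The collagen gene Col1a2 was at 15.99 and 8.158, 36.95 and 32.53, and 37.83 and 27.99 CPM (adjusted p = 2.75e-06). All 15 together, most of it Fn1, summed to 1655 and 1577 CPM in the first collection, 1540 and 1846 CPM in the second and 1907 and 2098 CPM in the third, and none of the 15 was at 0 in any of these libraries. The pluripotent markers summed to 4081 and 4413, 4890 and 4823, and 5280 and 5080 CPM. The part of either in the differences between collections was not tested.

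**Figure D5:**
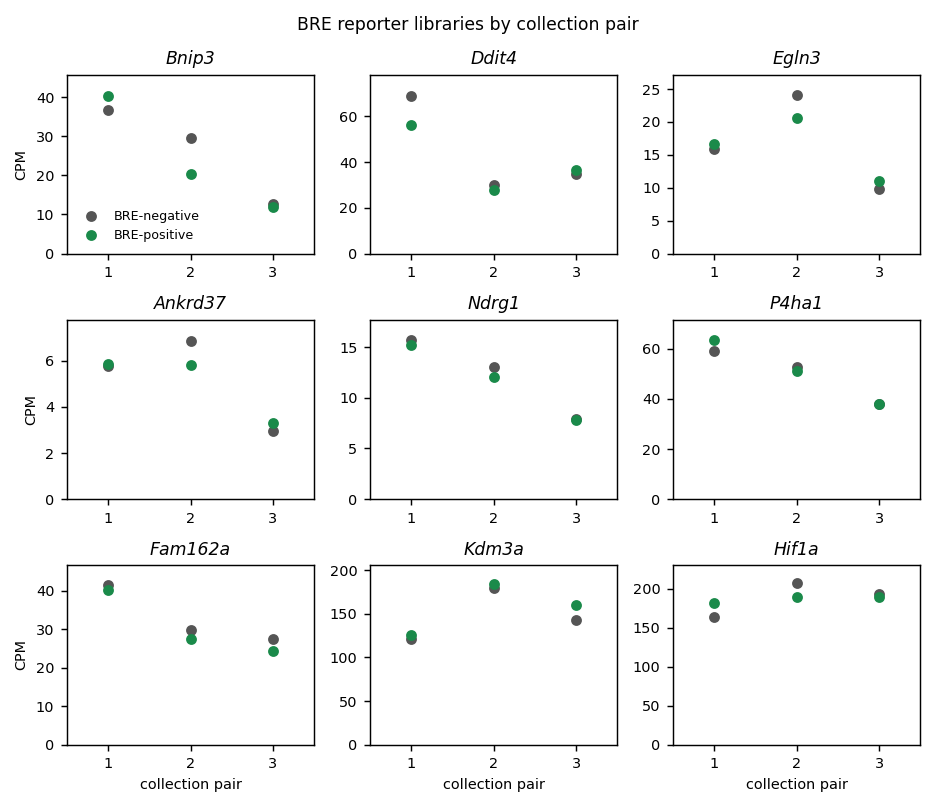
CPM in the BRE-negative and BRE-positive library of each collection for Bnip3, Ddit4, Egln3, Ankrd37, Ndrg1, P4ha1, Fam162a, Kdm3a and Hif1a. The libraries of 1 collection lie close together, and Bnip3 drops from 36.77 and 40.2 CPM in the first collection to 12.79 and 11.88 CPM in the third.

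Other genes of low-oxygen biology were read from lists, chosen with earlier results known, so their counts and p-values are given as a description. Of 22 glycolytic genes, 21 had a negative log2 fold change in KO (median -0.38), as did 48.3% of all genes tested. Against 3.18% of all genes lower and 1.85% higher, 2 of the 22 were called lower and 0 higher. These were the glucose transporter gene Slc2a3 (-1.16 ± 0.27, SE, edgeR adjusted p = 0.0494) and lactate dehydrogenase gene Ldha (-0.61 ± 0.14, adjusted p = 0.047). Of the fits that left out a KO library, each was called in 1. Between the reporter groups, 1 of the 22 was called (2.97% of all genes), higher in BRE-positive cells: Pfkp, a phosphofructokinase (0.28 ± 0.06, edgeR adjusted p = 0.017).

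Of 25 tested further HIF targets, 22 had a negative log2 fold change in KO (median -0.40), where 48.3% of all genes did. Lower calls numbered 2 (3.18% of all genes): the VEGF receptor gene Flt1 (-2.63 ± 0.54, edgeR adjusted p = 0.036) and the lysyl oxidase gene Loxl2 (-2.51 ± 0.56, adjusted p = 0.046). In reporter cells, 1 of 27 tested was called (2.97% of all genes), Lox (-0.54 ± 0.13, edgeR adjusted p = 0.047), a collagen crosslinking enzyme. Flt1 and Loxl2 were each called in 1 of the fits that left out a KO library. Over all 11 alternatives, Pfkp and Lox were called in 4 each. Lox kept its call with no filter and in the 3 fits without a collection, and lost it with DESeq2, RLE scaling, length offsets, no block and all limma fits. The Acta2, Col1a2 and Fbln2 feeder markers were also called lower in BRE-positive cells, at log2 fold changes of -1.12, -0.48 and -0.41, and their part in the Lox value was not tested.

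Of 11 further genes of the oxygen-sensing machinery, such as the HIF partner Arnt and the inhibitor Hif1an, edgeR called 0 in either comparison (median in KO 0.04). At an unadjusted p under 0.05 were 1 in KO and 4 in reporter cells, where 18.3% of all genes were. That share is not given for KO, so nothing is read from the KO counts at that p. Of 12 integrated stress response genes, 1 was called lower in KO, where 3.18% of all genes were, and the median was -0.45. It was the serine synthesis gene Phgdh (-0.59 ± 0.10, edgeR adjusted p = 0.023), called in 2 of the fits without a KO library. In reporter cells 0 of the 12 were called, with 7 at an unadjusted p under 0.05 (18.3% of all genes). Among 8 pluripotent markers, 1, Nanog, was called lower in KO (-0.60 ± 0.06, adjusted p = 0.00613), and among 8 tested feeder markers, 0 were called, with 3 at an unadjusted p under 0.05.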

How the data were processed

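Counts of the authors, whole numbers per Ensembl gene, and their TPM values were used as deposited. The TPM table was treated as a normalised signal made by the authors: the values equal (count + 1) over a gene length, scaled per library, and 722 repeated rows were dropped. Per the submitters' processing notes, the tools were STAR 2.4.1d, featureCounts 1.4.6, DESeq2 1.6.3, CASAVA 1.8.2 and FastQC 0.11.3, and the builds GRCm38.p4 and mm10. Neither the annotation release nor the strand setting is given in the sources used here.

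The test was edgeR 4.0.16 (R 4.3.3) on counts, quasi-likelihood, TMM scaling, expression filter (minimum count 10, total 15), Benjamini-Hochberg adjusted p under 0.05 over all genes. CPM uses TMM-scaled library sizes. The BRE fit had the collection as a block: same-numbered libraries deviated together (correlations 0.712, 0.589 and 0.529), and the series states that they were collected in pairs. The KO fit had no block, so libraries of the same parental line were taken as independent. Coordinates are GENCODE M21 (GRCm38), 1-based. The fit was tested on simulated data.

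The members and lists were chosen with earlier results of these data known. Every member was to be named. Values in every library were to be given for members called and for Hif1a, Epas1, Vhl, Egln1 and Vegfa, and up to 3 called genes were to be named per other list. Values in every library for other members were chosen after they were seen. Alternatives were DESeq2 1.42.0, RLE scaling, no filter, limma 3.58.1 on log2(TPM + 1) or log2(TPM + 0.1), the block added or dropped, length offsets, and each library or pair left out.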

Additional observations from a re-analysis of the deposited data

Results flagged for a closer look

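In the 4 KO libraries, 4 of the 33 genes had 1 library far from the other 3 (Dixon's ratio above 0.829). Chance alone gives this in about 1 in 20 groups. The share over all genes was not taken, so no excess is read from the 4. The glycogen branching enzyme gene Gbe1 was low in KO replicate 1, at 4.107 CPM. KO replicate 2 was high for Pfkfb3 (8.922 CPM), Adm (1.035 CPM) and Plod2 (50.71 CPM).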

How the results depend on the processing

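Over the alternatives of the BRE and KO comparisons, 654 of 776 member values kept their direction and side of the threshold, 47 lost and 26 gained a call, 49 uncalled values changed sign, and no called value reversed. These counts include the fits that leave 1 FL library. The cause of the changes below was not tested. Members past the threshold on the lower side in KO went from 9 to 15 with no filter on low counts. They went to 4, 3 and 4 with limma (log2(TPM + 1), log2(TPM + 0.1), and the first without a filter). With a KO library left out they went to between 3 and 12: 3 without KO replicate 3 and 4 without KO replicate 4. The fits without an FL replicate leave 1 FL library, and no count is read from them. With DESeq2, the 9 stayed and P4ha1, P4ha2, Bnip3 and Plod2 joined them on the lower side. Epas1 alone was called higher, with DESeq2 and with no filter. Members called between reporter groups went from 0 to 1 with no filter (Mif) and to between 0 and 7 with a collection left out. The 7 without the first were Bnip3 (log2 fold change -0.37), Egln1 (-0.24), Plod1 (-0.20), Errfi1 (-0.20), Pdk1 (-0.13), Bhlhe40 (0.18) and Pfkfb4 (0.45).

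Over all genes, calls in the BRE comparison went from 459 to 1010 with no filter, to 0 with each limma fit (2679, 2681 and 4189 at an unadjusted p under 0.05), and to between 200 and 2225 with a collection left out. In KO, calls went from 801 to 1498 with DESeq2 and to 198, 97 and 360 with limma. With a KO library left out they went to between 215 and 857. A fit without an FL replicate takes the lone FL library to vary like KO, so its calls are not read. Calls between collections went from 6745 to 4446 with DESeq2 and to 4422, 4404 and 3591 with limma.

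Pairing: without the replicate block, the BRE comparison called 0 genes (343 at an unadjusted p under 0.05) and 0 members, and the replicate block with length offsets called 281 genes and 0 members. In KO, the replicate block left 0 genes (2589 at an unadjusted p under 0.05), 0 members lower and 0 higher. There the samples share only a number: the deviations of FL replicate 1 correlated with KO replicates 1 to 4 at 0.263, 0.424, -0.407 and -0.362, and those of FL replicate 2 at -0.263, -0.424, 0.407 and 0.362. With only 2 FL libraries, their deviations are mirror images, so the second set of correlations repeats the first with the sign changed. The number block sets FL replicate 2 with KO replicate 2, a library it deviates against (-0.424). KO libraries numbered above 2 have no FL library in their block. The blocked comparison therefore rests on the pairs numbered 1 and 2, which leaves little to measure the spread from. Nothing is read from its 0 calls. A block by parental line was not fitted, since the labels do not give the lines. Low counts limit Adm, Ppp1r3c and Car12 most.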
